A study of Mus musculus with 16 samples.

Results

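APC cKO mice and β-cat cOE mice were compared to ask how the cortical transcriptome differs between 2 genetic routes to raised β-catenin. The comparison took every one of the 4 APC cKO libraries and the 4 β-cat cOE libraries, 8 of the 16 libraries in the series, by their genotype labels. The remaining libraries, 4 from controls and 4 from APC/β-cat cKOs, were used to estimate the spread and are given beside the results. Each library was made from polyadenylated RNA of dissected prefrontal cortex from a mouse of 1 genotype, and the study used mice aged 2 to 3 months of both sexes.

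APC cKOs carried floxed alleles of APC on both chromosomes (APC fl/fl), and the floxed stretch is removed by Cre. β-cat cOEs carried 1 floxed exon 3 allele of the β-catenin gene (ctnnb1 fl(ex3)/+), so their other copy and both copies of Apc were intact. APC/β-cat cKOs carried floxed alleles of both genes. All 3 lines used the same CamKIIα-Cre-93 driver, which the study describes as active mainly in excitatory neurons of the forebrain, and the dissected tissue also holds interneurons, glia and vessels. Recombination by cell type was not measured in these data. Controls were littermates without Cre, pooled from the different lines, and the labels do not say which line each control came from.

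β-catenin is a cell adhesion protein at cadherin junctions and also the transcriptional coactivator of the canonical Wnt pathway. APC is a scaffold of the destruction complex, in which β-catenin is phosphorylated and marked for degradation, and it also binds microtubules and cell polarity proteins. Loss of APC removes the scaffold together with these other functions, whereas deletion of exon 3 takes the phosphorylated residues out of β-catenin and leaves the scaffold in place.

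Exon 3 of Ctnnb1 is shown because its loss is what defines β-cat cOEs. It lies at chr9:120950522-120950749 of mm10 on the plus strand, is 228 bases long and coding throughout, and is exon 3 of 15 in transcript Ctnnb1-201 of the GENCODE annotation. It spans codons 5 to 81 of a protein of 781 residues. The 4 codons in capitals are those of the serines at positions 33, 37 and 45 and the threonine at position 41, counted from the first methionine.
Ctnnb1 exon 3: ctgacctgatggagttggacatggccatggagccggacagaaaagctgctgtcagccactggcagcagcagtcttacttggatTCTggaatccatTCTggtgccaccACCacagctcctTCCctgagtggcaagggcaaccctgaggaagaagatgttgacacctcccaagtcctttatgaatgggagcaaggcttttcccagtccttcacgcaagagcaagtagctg

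Values are FPKM, mapped fragments scaled by transcript length and by the size of the library. A difference is APC cKO minus β-cat cOE on the log2(FPKM + 0.1) scale, which understates the change of low genes, and is given with its standard error (SE) or 95% confidence interval. Of 23284 genes in the table, 13978 had a mean of at least 0.5 FPKM over the 16 libraries and were tested. The 8 libraries were alike across genes, with Pearson correlations of log2 values from 0.966 to 0.980 within APC cKOs, from 0.967 to 0.979 within β-cat cOEs and from 0.963 to 0.979 between them. APC cKOs had 5726 to 6063 genes at 0 per library and β-cat cOEs 5832 to 6217 (exact two-sided permutation test, p = 0.229, n = 4 per group). APC cKO replicate 1 was the 1 female library of the 8, with Xist at 22.1 FPKM. The number of fragments per library is unknown, since the table holds no counts.

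Apc was lower in APC cKOs than in β-cat cOEs, and Ctnnb1 RNA was close to equal in both. Apc was at 17.1, 10.8, 7.85 and 10.9 FPKM in APC cKO replicates 1, 2, 4 and 5 and at 48.1, 49.5, 41.7 and 38.8 FPKM in β-cat cOE replicates 1 to 4. The groups did not overlap, and the means were 11.7 ± 3.88 and 44.5 ± 5.11 FPKM (SD, n = 4 each). The difference was -1.97 (SE 0.20), a 3.92-fold lower level (limma, Benjamini-Hochberg adjusted p = 0.000426). The exact two-sided permutation test gave p = 0.0286, the smallest that 4 against 4 allows. Apc lies on chromosome 18 from 34220924 to 34322552 of mm10. In bulk tissue, fewer cells with the transcript and less transcript per cell cannot be told apart, here and in every result below.

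Ctnnb1 was at 182, 157, 166 and 176 FPKM in APC cKOs and at 166, 159, 155 and 159 FPKM in β-cat cOEs, so the groups overlapped. The difference was 0.091 with a 95% interval from -0.0061 to 0.19 (limma, adjusted p = 0.684), and the exact two-sided permutation test gave p = 0.171 (n = 4 per group). A difference in Ctnnb1 RNA over 0.19 on the log2 scale was therefore outside the interval. The table has 1 value per gene, so transcripts with and without exon 3 were not separated.

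Of the 13978 genes tested, 6 differed at an adjusted p under 0.05 (0.0429%), and all 6 (0.0429%) were lower in APC cKOs. Besides Apc they were Gm6277, Fut10, Tuba1c, Cd14 and Cwc22, and in each of the 6 every APC cKO library was below every β-cat cOE library. At an unadjusted p under 0.05, 508 genes (3.63%) were higher in APC cKOs and 550 (3.93%) were lower, together 7.57%, and 291 (2.08%) had an unadjusted p under 0.01. Every APC cKO value was above every β-cat cOE value in 361 genes (2.58%) and below in 366 (2.62%), together 727 (5.2%). The median difference of all tested genes was -0.00038. The 95% interval of the difference lay within 0.5 on either side of 0 in 10605 genes (75.9%) and within 1 in 13188 (94.3%).

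Cwc22, a spliceosome protein that helps load the exon junction complex, had the largest difference of the 6. It was at 5.85, 6.65, 6.82 and 6.71 FPKM in APC cKOs and at 158, 58.5, 158 and 73.7 FPKM in β-cat cOEs. The difference was -3.95 (SE 0.65), a 15.5-fold lower level (limma, adjusted p = 0.0403). The APC cKO libraries were tightly grouped, whereas β-cat cOE replicates 1 and 3 were more than double replicates 2 and 4. The gene lies on chromosome 2 from 77881159 to 77946375.

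Tuba1c, an α-tubulin isotype expressed at a low level in adult cortex, was at 0.29, 0.39, 0.47 and 0.25 FPKM in APC cKOs and at 2.84, 3.92, 3.70 and 3.26 FPKM in β-cat cOEs. The difference was -2.99 (SE 0.44), a 7.95-fold lower level (limma, adjusted p = 0.0149). Tuba1c lies on chromosome 15 from 99029891 to 99038110 beside the closely similar Tuba1a and Tuba1b, which were far more abundant, so its low value is uncertain where reads could be shared among them. Tuba1a was at 559 to 643 FPKM in APC cKOs and at 471 to 570 FPKM in β-cat cOEs (difference 0.19, limma adjusted p = 0.469).

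Gm6277 is annotated as an antisense RNA on chromosome 18 from 11820671 to 11840869, on the minus strand. It was at 0.37, 0.69, 0.88 and 0.67 FPKM in APC cKOs and at 2.49, 2.45, 2.19 and 2.69 FPKM in β-cat cOEs, a difference of -1.80 (SE 0.25; limma, adjusted p = 0.0108). Its start overlaps that of Cables1 on the opposite strand, from 11839220 to 11945630, and the library kit keeps strand but the strand setting of the authors' quantification is not given in the sources used here. Cables1 was at 5.22 to 7.47 FPKM in APC cKOs and at 6.21 to 7.18 FPKM in β-cat cOEs, and its difference was -0.13 (95% interval -0.41 to 0.14).

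Fut10, a member of the fucosyltransferase family, was at 0.86, 0.56, 0.66 and 0.90 FPKM in APC cKOs and at 2.57, 2.32, 2.16 and 2.20 FPKM in β-cat cOEs. The difference was -1.53 (SE 0.21; limma, adjusted p = 0.0108). It lies on chromosome 8 from 31187331 to 31261738. Cd14, the lipopolysaccharide coreceptor of myeloid cells, was at 1.01, 1.35, 1.08 and 0.86 FPKM in APC cKOs and at 2.44, 2.26, 2.16 and 1.99 FPKM in β-cat cOEs. The difference was -0.99 (SE 0.15; limma, adjusted p = 0.0172), and the gene lies on chromosome 18 from 36725067 to 36726798.

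**Figure D1:**
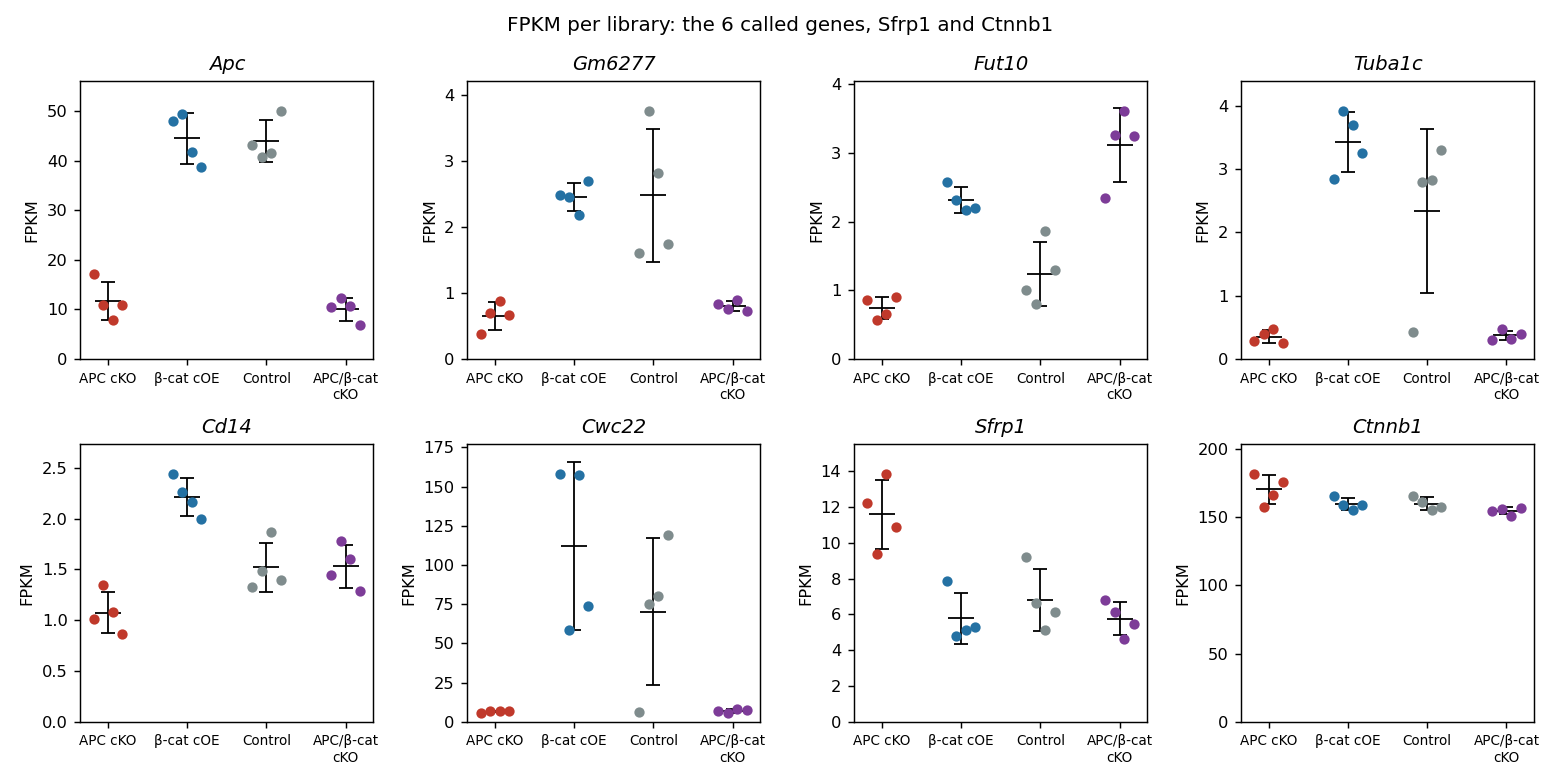
FPKM of the 6 called genes, Sfrp1 and Ctnnb1 in each library of the 4 genotypes; points are libraries, and the black marks are the mean and SD of 4 libraries. In Cwc22 and Tuba1c, control replicate 1 (6.20 and 0.42 FPKM) lies at the level of the APC cKOs while the other 3 controls lie at that of the β-cat cOEs.

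The 5 calls other than Apc depended on how the libraries were paired and on which libraries entered. With the replicate number as a block, in which APC cKO replicate 5 has no partner and so does not enter the difference, Apc alone passed (limma, adjusted p = 0.00771). The adjusted p under that block was 0.101 for Gm6277, Fut10 and Tuba1c, 0.241 for Cd14 and 0.415 for Cwc22, with differences from -0.86 for Cd14 to -3.78 for Cwc22. The numbers in the column headers instead set APC cKO replicate 5 beside β-cat cOE replicate 3, and with these 4 sets of libraries as a block 7 genes passed. Those 7 were Apc, Gm6277, Fut10, Tuba1c, Cd14, Sfrp1 and Sfxn4, and Cwc22 did not pass (adjusted p = 0.0778). Leaving out either β-cat cOE replicate 2 or replicate 4 left 1 call, Apc, and the count was 2 without APC cKO replicate 4, 3 without APC cKO replicate 5 and 3 without β-cat cOE replicate 3.

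The libraries outside the comparison lay on different sides of these genes. Cwc22 was at 6.20 FPKM in control replicate 1 and at 75.3, 80.1 and 119 FPKM in control replicates 2 to 4, and at 5.51 to 8.30 FPKM in APC/β-cat cKOs. Tuba1c was at 0.42 FPKM in control replicate 1, at 2.80 to 3.30 FPKM in the other 3 controls and at 0.30 to 0.47 FPKM in APC/β-cat cKOs. Gm6277 was at 1.61 to 3.76 FPKM in controls and at 0.73 to 0.90 FPKM in APC/β-cat cKOs. Fut10 had another order, with 0.80 to 1.86 FPKM in controls and 2.34 to 3.61 FPKM in APC/β-cat cKOs. Cd14 in controls, at 1.32 to 1.87 FPKM, and in APC/β-cat cKOs, at 1.29 to 1.77 FPKM, lay mostly between the 2 lines.

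Against the same 4 controls, Apc was lower in APC cKOs by a difference of -1.95 (limma, adjusted p = 0.00024) and stood at 0.017 in β-cat cOEs (adjusted p = 0.999). Gm6277 was likewise lower in APC cKOs (-1.74, adjusted p = 0.0101), with 0.061 in β-cat cOEs (adjusted p = 0.982). For Cwc22, APC cKOs differed from control by -2.81 and β-cat cOEs by 1.14, for Tuba1c by -2.16 and 0.83, for Fut10 by -0.63 and 0.91, and for Cd14 by -0.47 and 0.52. None of these 8 differences passed the test, with adjusted p from 0.152 to 0.950. Both comparisons use the same controls, so they are not independent of each other. In Cwc22 and Tuba1c, control replicate 1 (6.20 and 0.42 FPKM) lowers the control mean and widens the spread. The other 3 controls, at 75.3 to 119 and 2.80 to 3.30 FPKM, lay near the β-cat cOEs. Differences from those 3 controls alone were not fitted.

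Over the 727 genes in which the 2 lines did not overlap, control replicate 1 was nearer to the APC cKO mean than to the β-cat cOE mean in 503 genes (69.2%). Control replicates 2, 3 and 4 were nearer to it in 243, 245 and 231 genes (33.4%, 33.7% and 31.8%). The 4 APC/β-cat cKO libraries were nearer to the APC cKO mean in 348 to 482 of the 727 genes (47.9% to 66.3%). Over all 13978 tested genes the shares were 53.2% for control replicate 1, 40.6% to 44.4% for the other 3 controls and 44.5% to 57.8% for the APC/β-cat cKOs. Of the 10 highest and 10 lowest genes named below, control replicate 1 was on the APC cKO side in 17 of 20, and control replicates 2, 3 and 4 in 1, 0 and 6. APC/β-cat cKO replicates 1 to 4 were on that side in 17, 17, 15 and 11 of the 20.

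**Figure D2:**
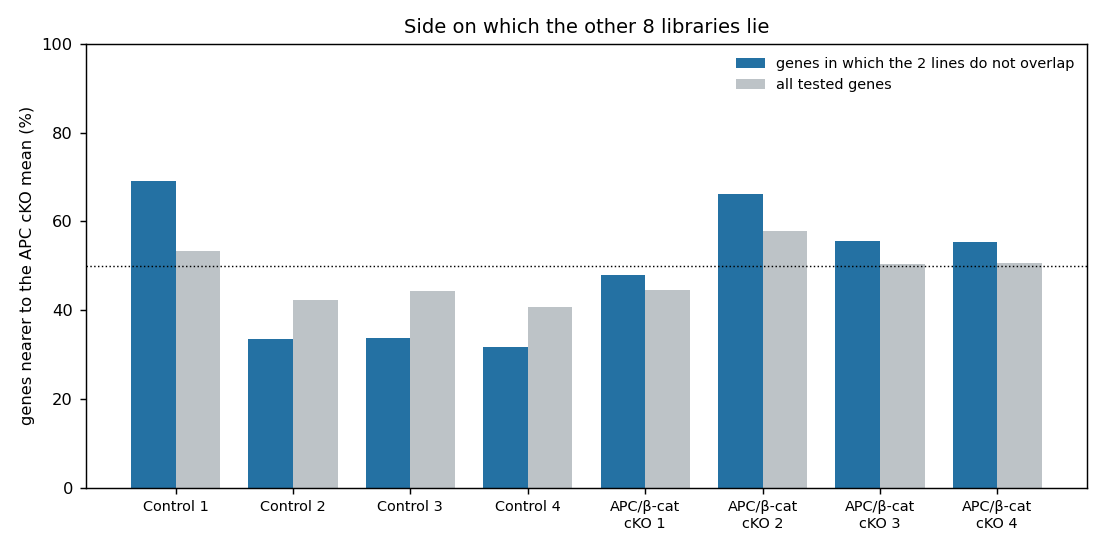
Percent of genes in which each control and APC/β-cat cKO library was nearer to the APC cKO mean than to the β-cat cOE mean on the log2 scale, for the 727 genes without overlap (blue) and for all tested genes (grey); the dotted line is at 50%. Control replicate 1 stands at 69.2% and the other 3 controls at 31.8% to 33.7% in the blue bars.

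Without control replicate 1, whose value enters only through the estimate of the spread, 23 genes passed at the same differences, 7 of them higher and 16 lower in APC cKOs. All 6 calls were among the 23, and 8 of the 23 were on chromosome 18 and 5 on chromosome 2, which hold 398 and 1123 of the 13978 tested genes. The adjusted p then was 2.80e-06 for Cwc22 and 1.17e-06 for Tuba1c. Among the 17 others were Pcdhb6, Pcdhb3, Pcdhb7, Pcdhb9 and Pcdhb2 of the clustered protocadherins, Sfrp1, Myoc and the interleukin genes Il1f9 and Il33. The count of 23 was the highest as each library in turn was left out. Leaving out a library that lies apart from its group in these genes lowers their spread, so the added calls are not independent support. What sets control replicate 1 apart was not tested. It was also the 1 female control, and with sex as a covariate 5 genes passed.

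Of the tested genes, 215 had a mean of at least 1 FPKM over the 8 libraries, an unadjusted p under 0.01 and no overlap, 100 of them higher and 115 lower in APC cKOs. The 10 with the largest positive differences were Myoc, Pcdhb6, Pcdhga11, Pcdhgb5, Pcdhgb6, Pcdhb2, Pcdhb7, Ddo, Sfrp1 and S100a4. None of the 10 passed the adjusted test (limma, adjusted p from 0.102 to 0.325), and 6 of them were protocadherin genes. Myoc, which encodes the secreted glycoprotein myocilin, was at 8.07, 8.25, 4.81 and 4.64 FPKM in APC cKOs and at 0.84, 0.51, 2.31 and 1.43 FPKM in β-cat cOEs (difference 2.39, SE 0.63). Ddo, the D-aspartate oxidase gene, was at 3.94 to 5.70 FPKM in APC cKOs and at 2.06 to 2.61 FPKM in β-cat cOEs (difference 1.01, SE 0.25). S100a4, a calcium-binding protein gene, was at 12.03 to 15.3 FPKM and at 3.54 to 11.03 FPKM (difference 0.97, SE 0.27).

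Sfrp1, a secreted antagonist that binds Wnt ligands, was at 12.2, 9.38, 13.9 and 10.9 FPKM in APC cKOs and at 7.89, 4.82, 5.13 and 5.31 FPKM in β-cat cOEs. The difference was 1.0 (SE 0.18; limma, adjusted p = 0.102), and its adjusted p was 0.101 with the replicate number as a block and 0.120 with only the 8 libraries compared. It passed with the header sets as a block (adjusted p = 0.0145), without β-cat cOE replicate 1 (0.0441) and without control replicate 1 (0.0200). APC/β-cat cKOs, at 4.63 to 6.82 FPKM, were near the β-cat cOEs in this gene, and controls were at 5.15 to 9.21 FPKM.

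The 10 largest negative differences were those of Cwc22, Tuba1c, Il1f9, Apc, Gm6277, Fut10, Pcdhb9, Bambi-ps1, Tagap1 and Lyrm7. Il1f9, an interleukin of the interleukin-1 family, was at 0.82 to 1.24 FPKM in APC cKOs and at 2.67 to 7.84 FPKM in β-cat cOEs (difference -2.22, SE 0.46; limma, adjusted p = 0.166). It lies on chromosome 2, as Cwc22 does, and β-cat cOE replicates 1 and 3 were again the highest, at 7.25 and 7.84 FPKM. Control replicate 1 was at 0.94 FPKM and the other 3 controls at 4.34 to 5.67 FPKM. Lyrm7, an assembly factor of mitochondrial complex III, was at 2.19 to 4.81 FPKM and at 6.61 to 8.18 FPKM (difference -1.13, SE 0.36). Bambi-ps1 is a processed pseudogene, whose reads can be shared with its parent gene, and stood at 0.61 to 1.08 FPKM and at 1.62 to 3.15 FPKM.

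The genes without overlap were not spread evenly over the chromosomes, and chromosomes 18 and 2 had the highest shares. On chromosome 18, which carries Apc, 41 of 398 tested genes (10.3%) did not overlap, against 5.2% of all tested genes. Of these 41, 15 were clustered protocadherins, a single family described below. On chromosome 2 the number was 102 of 1123 (9.08%), and on chromosome 9, which carries Ctnnb1, 29 of 805 (3.60%). An unadjusted p under 0.01 was reached by 26 genes (6.53%) on chromosome 18, 66 (5.88%) on chromosome 2 and 7 (0.870%) on chromosome 9, against 2.08% of all genes. The 26 on chromosome 18 also include clustered protocadherins, among them Pcdhb9, Pcdhb6 and Pcdhgb5, so this share too is partly that of a single family. Of the 6 calls, 3 (Apc, Gm6277 and Cd14) lay on chromosome 18. Among the 41 genes without overlap on chromosome 18, control replicate 1 was nearer to APC cKOs in 33 and control replicates 2, 3 and 4 in 7, 5 and 20. Among the 102 on chromosome 2, the numbers were 75 and 38, 29 and 17. APC/β-cat cKO replicates 1 to 4 were nearer to APC cKOs in 27, 26, 27 and 25 of the 41. Of the 102 they were nearer in 61, 82, 68 and 62.

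**Figure D3:**
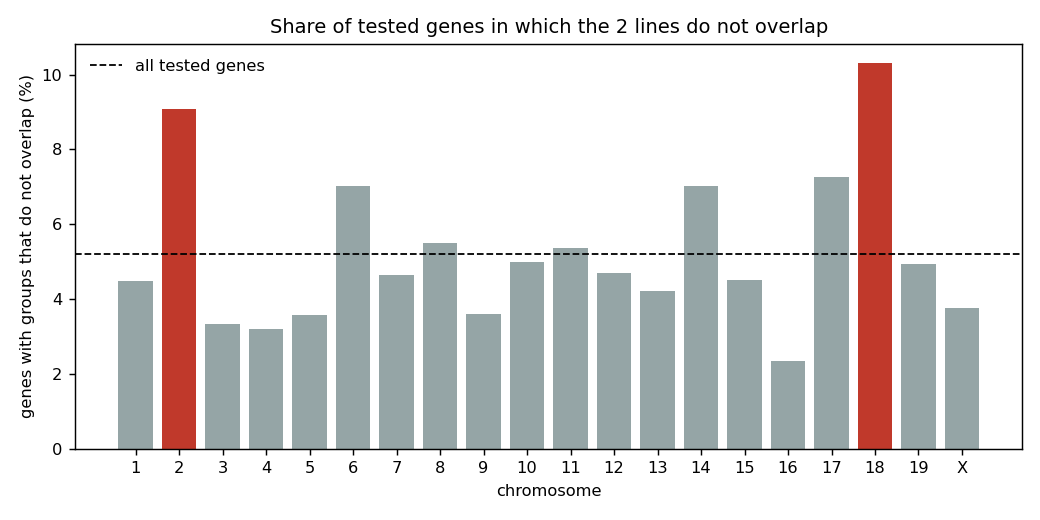
Percent of tested genes on each chromosome in which every APC cKO value was above, or below, every β-cat cOE value; the dashed line is the share over all tested genes, 5.2%. Chromosomes 18 (10.3%) and 2 (9.08%) are drawn in red.

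Within 15 Mb of Apc, 196 other genes were tested, of which 34 (17.3%) had an unadjusted p under 0.05 and 21 (10.7%) did not overlap, 14 above and 7 below, against 7.57% and 5.2% of all tested genes. This window holds the clustered protocadherins, 1 family in tandem clusters, which supplied 12 of the 14 above and 3 of the 7 below. At an unadjusted p under 0.05, 12 members of that family were higher and 6 lower. Within 15 Mb of Ctnnb1, 205 other genes were tested, of which 11 (5.37%) had an unadjusted p under 0.05 and 9 (4.39%) did not overlap, both below the shares of all tested genes. Within 1 Mb, neither floxed gene had a called neighbour. Of 19 neighbours of Apc in that window, 2 had an unadjusted p under 0.05 and 1, Gm10548, did not overlap. Gm10548 is a pseudogene annotated from 34207775 to 34221772, across the start of Apc. It was low, at 0.91 to 1.06 FPKM in APC cKOs and at 0 to 0.59 FPKM in β-cat cOEs (difference 2.27; limma, adjusted p = 0.325). It was at 0.020 to 0.79 FPKM in controls and at 0.66 to 1.29 FPKM in APC/β-cat cKOs. Near the other calls, 20 of 77 neighbours of Cd14, 3 of 11 of Gm6277, 2 of 5 of Fut10, 3 of 44 of Tuba1c (6.82%) and 0 of 4 of Cwc22 had an unadjusted p under 0.05, against 7.57% of all tested genes. The share beside Tuba1c was thus near that of all genes, and the numbers beside Gm6277, Fut10 and Cwc22 are small. The neighbours of Cd14 include the clustered protocadherins. Of these neighbours 12 were above and 3 below without overlap, the same numbers as in the protocadherin family, so the 2 counts are not separate observations. Beside Fut10, Tti2 was at 4.46 to 5.30 FPKM in APC cKOs and at 5.72 to 6.42 FPKM in β-cat cOEs (difference -0.30, limma adjusted p = 0.325). The design cannot tell a floxed allele apart from the DNA that was inherited with it.

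The clustered protocadherins, cell surface proteins whose isoforms give neurons individual adhesive identities, lie in 3 tandem clusters on chromosome 18, and the family was singled out here after its values were seen. Of 55 tested members, 12 were above and 3 below without overlap, 15 in all (27.3%, against 5.2% of all tested genes), and 0 of the 55 passed the adjusted test. These 15 are among the 41 genes without overlap counted above for chromosome 18. By cluster, 0 of 12 α genes, 9 of 21 β genes and 6 of 22 γ genes did not overlap. Pcdhb6 was at 3.30, 3.80, 4.28 and 2.78 FPKM in APC cKOs and at 0.62, 0.64, 1.18 and 0.65 FPKM in β-cat cOEs (difference 2.09, SE 0.42; limma, adjusted p = 0.117). Pcdhb9 went the other way, at 4.57, 3.09, 2.96 and 2.57 FPKM in APC cKOs and at 9.11, 9.42, 5.71 and 8.15 FPKM in β-cat cOEs (difference -1.28, SE 0.24; limma, adjusted p = 0.102).

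Among the γ genes, Pcdhga11 was at 5.52 to 7.46 FPKM in APC cKOs and at 1.44 to 3.98 FPKM in β-cat cOEs (difference 1.53), and Pcdhgb5 and Pcdhgb6 had differences of 1.36 and 1.15. Pcdhgb4 had a difference of -0.54. Summed over the 55 members, levels were 255 to 273 FPKM in APC cKOs and 236 to 262 FPKM in β-cat cOEs, and these ranges overlap. Control replicate 1 was at 3.78 FPKM of Pcdhb6 and 3.98 FPKM of Pcdhb9, inside the APC cKO ranges, and the other 3 controls were at 0.58 to 0.81 FPKM and 7.80 to 8.75 FPKM, at the β-cat cOE levels. The members resemble each other in sequence and the γ and α genes share exons, so reads could be split among them and single values are uncertain.

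Wnt target and feedback genes did not pass the test, and their differences leaned to higher values in APC cKOs. Of 27 tested members, 0 were called, 5 were higher and 0 lower at an unadjusted p under 0.05 (3.63% and 3.93% of all tested genes), and the median difference was 0.13 against -0.00038 over all genes. Axin2, a feedback scaffold of the destruction complex, was at 8.40, 6.03, 7.65 and 6.61 FPKM in APC cKOs and at 5.33, 5.75, 5.91 and 6.63 FPKM in β-cat cOEs. The groups overlapped by a small margin, and the difference was 0.27 (95% interval 0.027 to 0.51; limma, adjusted p = 0.597). Lef1, a factor through which β-catenin acts on target genes, was at 0.83 to 1.43 FPKM and at 0.75 to 1.24 FPKM (difference 0.087, 95% interval -0.43 to 0.61). The median of the 27 genes was 0.074 without APC cKO replicate 1, where 15 differences were positive and 12 negative and 1 member was higher and 1 lower at an unadjusted p under 0.05, and it ranged from 0.067 (without β-cat cOE replicate 2) to 0.23 (without β-cat cOE replicate 1). At that p, 1 member was higher without β-cat cOE replicate 3 and 8 were higher without APC cKO replicate 2. The median was 0.057 with the replicate number as a block, and 3 members were higher at that p.

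Ccnd2, a D-type cyclin gene, was at 12.7 to 13.97 FPKM in APC cKOs and at 9.52 to 11.4 FPKM in β-cat cOEs, without overlap (difference 0.36; limma, adjusted p = 0.381). Ccnd1 was at 11.96 to 17.3 FPKM and at 9.82 to 11.8 FPKM, also without overlap (difference 0.38, adjusted p = 0.619). Wif1, a secreted Wnt inhibitor, was at 7.12, 1.14, 3.50 and 3.34 FPKM in APC cKOs and at 1.55, 1.48, 0.45 and 2.46 FPKM in β-cat cOEs (difference 1.23, 95% interval 0.20 to 2.26; adjusted p = 0.534). APC cKO replicate 1 had the highest Wif1 and also the highest Notum, at 5.31 FPKM against 1.11 to 2.88 FPKM in the other 3 APC cKOs.

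**Figure D4:**
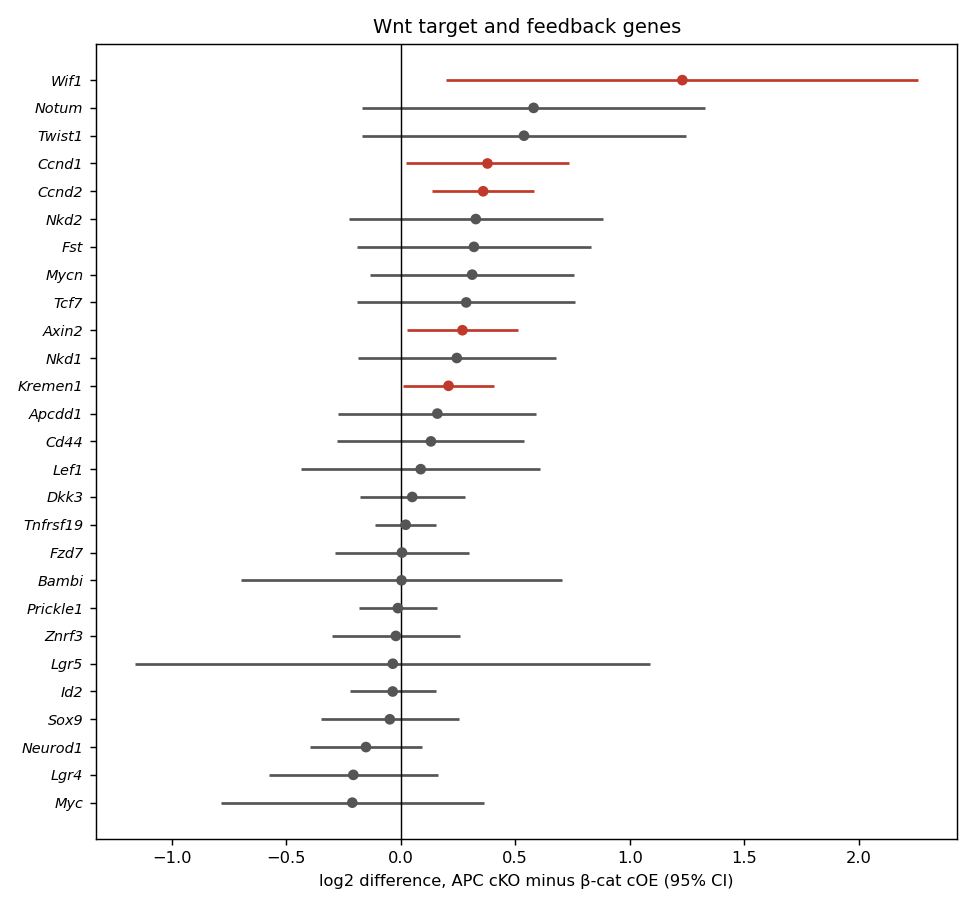
Differences of the 27 tested Wnt target and feedback genes, APC cKO minus β-cat cOE on the log2(FPKM + 0.1) scale, with 95% confidence intervals; red marks an unadjusted p under 0.05. Ccnd2, Wif1, Axin2, Ccnd1 and Kremen1 are in red, all above 0, and 0 of the 27 passed the adjusted test.

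Apart from Apc, which was not counted in these lists, no gene of the destruction complex, of the TCF/LEF factors or of the catenins and cadherins was called. Of 28 tested destruction complex genes, 0 were called, with a median difference of 0.0053 and values from -0.17 to 0.27, the highest being Axin2. Btrc, the ubiquitin ligase subunit that recognises phosphorylated β-catenin, was at 22.7 to 24.5 FPKM in APC cKOs and at 23.2 to 29.7 FPKM in β-cat cOEs (difference -0.15, 95% interval -0.30 to 0.0066). Of 24 TCF/LEF factors and cofactors 0 were called (median 0.050), and Tle6 had the smallest p, with a difference of 0.44 (95% interval 0.062 to 0.82). Of 30 catenins, cadherins and synaptic partners 0 were called (median -0.012, from -0.47 to 0.58), and Cdh1 had the smallest p, with a difference of 0.58 at 0.53 to 1.38 FPKM over the 8 libraries.

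Of 40 APC-binding and microtubule proteins, 0 were called and the median was -0.013. Mcc, a member of this list, was at 1.69 to 2.26 FPKM in APC cKOs and at 1.15 to 1.64 FPKM in β-cat cOEs, without overlap (difference 0.50; limma, adjusted p = 0.479). Mcc lies on chromosome 18 as Apc does. Diap1 and Spata13, both tied to the actin cytoskeleton, had differences of 0.24 and 0.52 with unadjusted p under 0.05.

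In the family of each of 4 called genes, no second member was called. Of 16 tested tubulins, Tuba1c was called, and the others ranged up to 0.21 in Tubb2b. Besides Tuba1c, 3 of the 16, Tubb4b, Tubb5 and Tubg1, did not overlap and were above in APC cKOs, with differences from 0.082 to 0.10 (limma, adjusted p from 0.684 to 0.813), and 5.2% of all tested genes did not overlap. Of 28 exon junction complex genes and Cwc22 partners, Cwc22 was called, and the smallest p among the others was 0.157, of Smg5. Of 13 fucosyltransferases and fucose pathway genes, Fut10 was called, and Gmds (0.19) and Pofut2 (0.16) came next. Of 21 tested Cd14 and Toll-like receptor genes, Cd14 was called. Tlr7 was at 1.18 to 1.26 FPKM in APC cKOs and at 0.85 to 1.06 FPKM in β-cat cOEs, without overlap (difference 0.33; limma, adjusted p = 0.574). Irak4, a kinase of Toll-like receptor signalling, was at 0.33 to 0.523 FPKM and at 0.525 to 0.80 FPKM, below without overlap by a small margin (difference -0.46; adjusted p = 0.751).

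The 10 autism-linked genes that the study's text names were chosen by the study on these same libraries, so they are not independent evidence. Of the 9 tested, 0 were called and 0 had an unadjusted p under 0.05, and the median difference was 0.070, which turned to -0.0094 with the replicate number as a block, where 4 differences were positive and 5 negative. Pvalb, the calcium-binding protein of fast-spiking interneurons, was at 25.6, 54.4, 39.4 and 33.2 FPKM in APC cKOs and at 42.7, 37.1, 61.7 and 41.1 FPKM in β-cat cOEs. The difference was -0.28 (95% interval -0.68 to 0.11; limma, adjusted p = 0.806), and the exact two-sided permutation test gave p = 0.400 (n = 4 per group). Camk4, Fam19a2 and Kirrel3 differed by 0.00099, -0.014 and -0.012, with 95% intervals within 0.37 of 0. Intervals were wider for Dcx (-0.56 to 0.91) and Pax6 (-0.64 to 0.78), and in both genes replicate 1 was the highest in both lines.

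Activity-regulated genes, the immediate early genes and their partners that neurons induce on firing, had positive differences throughout without passing the test. All 23 tested members had a positive difference, with a median of 0.50, 8 had an unadjusted p under 0.05 (3.63% of all tested genes were higher at that p), and 0 were called. Fosb did not overlap, at 4.64, 4.25, 3.32 and 3.32 FPKM in APC cKOs and at 1.88, 2.35, 2.76 and 3.14 FPKM in β-cat cOEs (difference 0.61, SE 0.20; limma, adjusted p = 0.457). Arc, a synaptic immediate early gene, was at 76.3, 106, 60.1 and 64.3 FPKM in APC cKOs and at 18.6, 21.96, 62.3 and 85.9 FPKM in β-cat cOEs (difference 0.96, SE 0.41; adjusted p = 0.599). Fosb was the 1 of 23 members without overlap, a share near the 5.2% of all tested genes. Without β-cat cOE replicate 1 the list's median fell to 0.29, with 2 members at an unadjusted p under 0.05 and 21 of 23 positive. Without each of the other libraries in turn the median was 0.38 to 0.62, with 3 to 13 members at that p.

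The spread within β-cat cOEs was large in this group. Egr1, at 34.9 and 65.0 FPKM in β-cat cOE replicates 1 and 2, was at 81.8 and 97.9 FPKM in replicates 3 and 4, and at 77.5 to 123 FPKM in APC cKOs. Averaged over the 23 members, log2 levels were 3.03, 3.39, 3.74 and 4.0 in β-cat cOE replicates 1 to 4 and 3.69 to 4.26 in APC cKOs. Replicates 3 and 4 thus lay inside the APC cKO range and replicates 1 and 2 below it. The time from handling to dissection is not given in the sources used here. Homer1, Nptx2 and Ptgs2, also members of the group, had differences of 0.50, 0.30 and 0.90 with unadjusted p under 0.05. Bdnf was at 7.25 to 12.4 FPKM and at 6.80 to 10.8 FPKM (difference 0.0021, 95% interval -0.37 to 0.37).

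Lists of markers of other cell types leaned to either side, and the oligodendrocyte genes were mostly lower in APC cKOs without passing the test. Of 18 oligodendrocyte genes, 17 had a negative difference, 7 had an unadjusted p under 0.05 (3.93% of all tested genes were lower at that p) and 0 were called, and the median was -0.20. Mbp, a myelin protein gene, was at 238, 284, 289 and 223 FPKM in APC cKOs and at 301, 354, 264 and 335 FPKM in β-cat cOEs (difference -0.28, SE 0.12; limma, adjusted p = 0.577). Ermn, a cytoskeletal protein of myelinating cells, was at 6.99 to 11.4 FPKM and at 11.5 to 15.8 FPKM, without overlap (difference -0.51; adjusted p = 0.457). Summed over the 18 genes, levels were 757 to 895 FPKM in APC cKOs, 860 to 1114 FPKM in β-cat cOEs and 852 to 1268 FPKM in controls. As each of the 8 libraries was left out, 16 to 18 of the 18 differences stayed negative and the median was -0.26 to -0.14, with 1 (without β-cat cOE replicate 2) to 10 (without β-cat cOE replicate 3) members at an unadjusted p under 0.05.

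Of 16 microglial genes 0 were called (median -0.11), and the summed level was 308 to 359 FPKM in APC cKOs and 359 to 411 FPKM in β-cat cOEs. Ctss, a lysosomal protease gene, was at 42.3 to 56.1 FPKM and at 58.1 to 72.5 FPKM, without overlap (difference -0.29; limma, adjusted p = 0.597). Cd14 is also a gene of myeloid cells, and the part of the microglial level in its difference was not tested. Of 16 endothelial and mural genes 0 were called (median -0.094, and from -0.17 to -0.0068 as each of the 8 libraries was left out). Rgs5, a pericyte gene, was at 9.13, 10.9, 9.27 and 10.4 FPKM in APC cKOs and at 13.6, 14.9, 13.5 and 14.4 FPKM in β-cat cOEs, without overlap (difference -0.50, SE 0.11; limma, adjusted p = 0.230). Of 14 astrocyte genes 0 were called (median -0.042), and Ndrg2 was at 240 to 251 FPKM and at 266 to 294 FPKM, without overlap (difference -0.17; adjusted p = 0.457).

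Of 15 tested parvalbumin interneuron genes, 13 had a negative difference, 0 had an unadjusted p under 0.05 and the median was -0.12. Without APC cKO replicate 2 or β-cat cOE replicate 4 the median was -0.20, with 5 and 4 members lower at that p, and without β-cat cOE replicate 3 it was -0.023. Of 21 genes of other interneurons, 0 were called and the median was -0.017, which turned to 0.15 without APC cKO replicate 2 and 0.16 without β-cat cOE replicate 1. Npy, a neuropeptide gene, was at 195, 211, 192 and 205 FPKM in APC cKOs and at 304, 235, 255 and 232 FPKM in β-cat cOEs, without overlap (difference -0.35, SE 0.11; limma, adjusted p = 0.457). Vip, another neuropeptide gene, had a difference of -0.25 and overlapped. Among 26 excitatory neuron and cortical layer genes, 0 were called and the median was 0.028. At an unadjusted p under 0.05, 4 were higher and 1 lower (3.63% and 3.93% of all tested genes). As each of the 8 libraries was left out, the number higher ranged from 1 to 5. It was 1 without APC cKO replicate 4 and 5 without APC cKO replicate 1 or β-cat cOE replicate 2. Cux1, an upper layer factor, was at 17.4 to 19.6 FPKM in APC cKOs and at 20.7 to 24.1 FPKM in β-cat cOEs (difference -0.24; adjusted p = 0.325). Nr4a2, found in deep layer and claustrum neurons and also inducible by activity, was at 11.4 to 14.4 FPKM and at 3.87 to 10.1 FPKM (difference 0.82; adjusted p = 0.469). Neither Cux1 nor Nr4a2 overlapped between the lines.

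Genes of neighbouring regions varied widely within each line. Of 18 striatal projection neuron genes, 17 had a positive difference with a median of 0.48, but 0 had an unadjusted p under 0.05 and 0 were without overlap. Their summed level was 242 to 918 FPKM in APC cKOs, 216 to 509 FPKM in β-cat cOEs and 215 to 701 FPKM in controls. Drd2, the dopamine receptor of one striatal cell class, was at 1.37, 4.73, 15.4 and 3.85 FPKM in APC cKOs and at 0.45, 2.67, 1.82 and 5.57 FPKM in β-cat cOEs, highest in replicate 4 of each line. The median of the 18 genes was 0.12 without APC cKO replicate 4 and 0.16 without β-cat cOE replicate 1, and 0.81 without APC cKO replicate 1. Ependyma and choroid plexus genes had a median of 0.80 over 10 tested members, of which Mia1 had an unadjusted p under 0.05 (difference 1.0; limma, adjusted p = 0.534). Their median was 0.36 without APC cKO replicate 4, with 0 members at that p, and 1.25 without APC cKO replicate 2, with 5. Of 10 tested genes of meninges and fibroblasts and 16 of immature neurons 0 were called, with medians of 0.085 and 0.18. Both medians turned without APC cKO replicate 1, to -0.0023 and -0.083.

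No receptor or synaptic scaffold gene was called. Of 36 glutamate and GABA receptor genes 0 were called and the median was -0.041, with differences from -0.32 to 0.24. Gria4, an AMPA receptor subunit gene, was at 32.9 to 36.9 FPKM in APC cKOs and at 37.5 to 41.3 FPKM in β-cat cOEs, without overlap (difference -0.19; limma, adjusted p = 0.644). Of 32 spine and postsynaptic scaffold genes 0 were called (median -0.011), and apart from Homer1 the differences lay between -0.19 and 0.14. Of 23 dopamine and serotonin signalling genes 0 were called (median 0.13).

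**Figure D5:**
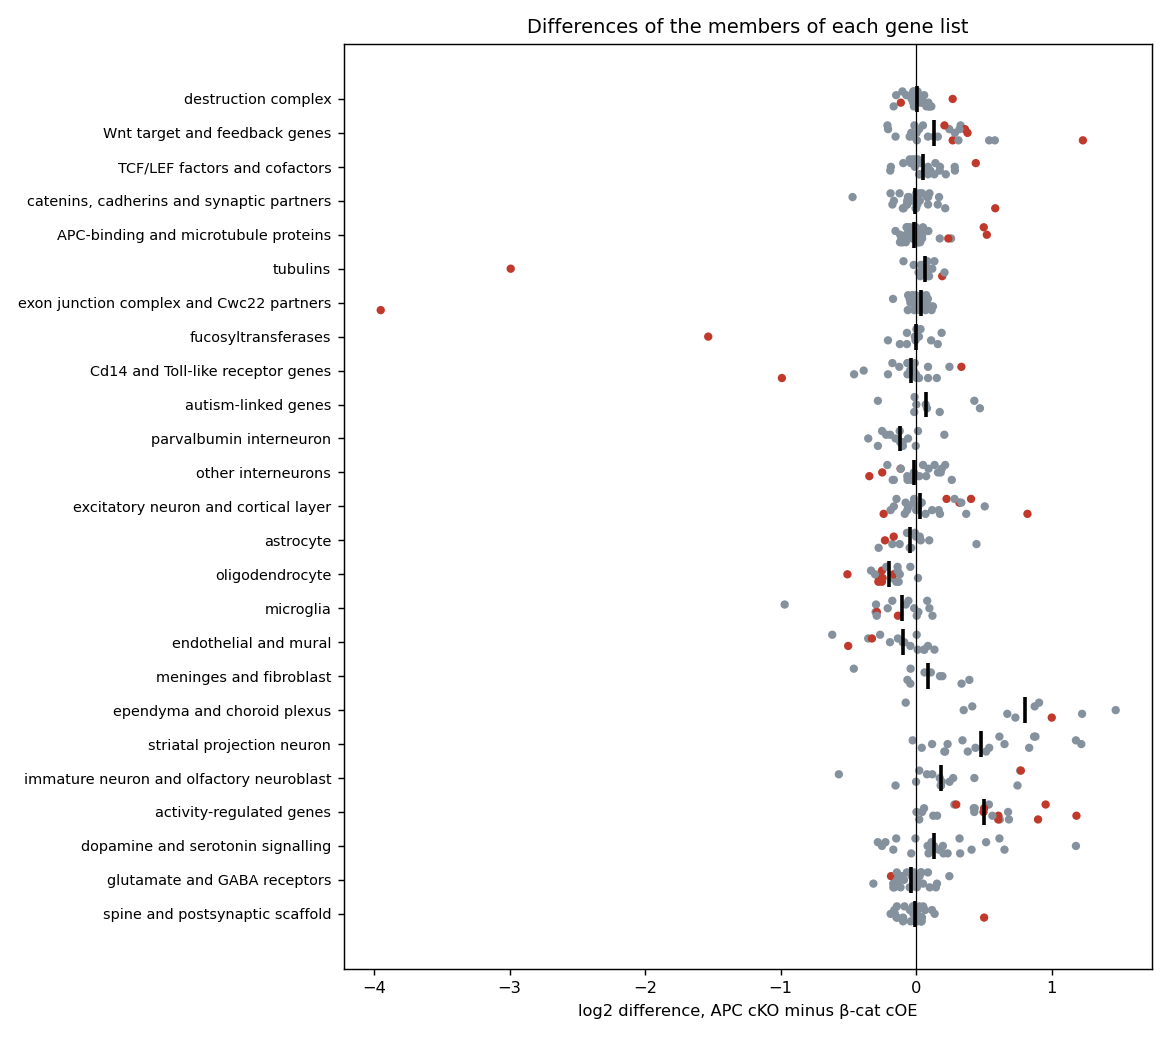
Differences of the tested members of 25 gene lists, APC cKO minus β-cat cOE on the log2(FPKM + 0.1) scale; each point is a gene, red marks an unadjusted p under 0.05, and the black bar is the median of the list. Tuba1c, Cwc22, Fut10 and Cd14 have the lowest differences of their lists, and the medians of the striatal, ependymal and activity-regulated lists lie between 0.48 and 0.80.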

How the data were processed

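RNA of prefrontal cortex was measured in 16 libraries, 4 of each of 4 genotypes, and grouped by the genotype labels. The authors mapped the reads to mm10 with TopHat2 2.0.10 and made normalized values with Cufflinks2. The deposited table gives 1 log2 value per gene and library, whose sums fit log2(FPKM + 1), and these were turned back into FPKM. All 16 value columns were used. No label says whether libraries share a litter or extraction, so p-values measure the spread between these libraries. Library depth is unknown, and 25 symbols appear as dates.

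Differences were tested with limma 3.58.1 in R 4.3.3 on log2(FPKM + 0.1), using a linear model of the 4 genotype means and moderated variances with a trend on mean level. Genes averaging at least 0.5 FPKM over all libraries entered. Residual degrees of freedom were 12, and a gene was called at a Benjamini-Hochberg adjusted p under 0.05 over all 13978 genes. Levels of single genes were set against each other by two-sided permutation tests in scipy that enumerate every split (exact). The test was checked on simulated data in which all libraries were drawn independently. That check therefore does not cover paired libraries or a control that lies apart from its group. Positions are those of the GENCODE annotation of mm10, and neighbours were found by the positions in the table.

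The genes named are Apc, Ctnnb1, every called gene, the 10 largest positive and 10 largest negative differences under the rule given in the text, and in each list the members with the smallest p, with others where needed. The comparison, the lists and the rule were chosen with earlier results of these data known. The lists were not tested as sets. Of 552 listed symbols, 550 were found.

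Replicate numbers come from the titles. Deviations from the group means correlated at 0.322, 0.197 and 0.111 between same-numbered APC cKO and β-cat cOE libraries 1, 2 and 4, each over 0.1, and each of these APC cKO libraries correlated best with its own number, so the numbers were taken to pair them. The numbers in the column headers gave another pair, APC cKO replicate 5 and β-cat cOE replicate 3 (0.143), and that block was chosen after seeing the data, as were the list medians and counts without each library or with a block. Other alternatives were pseudocounts of 1 and 0.01, no low-value filter or one at 2 FPKM, scaling by quantiles or by median of ratios, other variance moderation, sex as a covariate, only the 8 libraries, other thresholds and each library left out.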

Additional observations from a re-analysis of the deposited data

Results flagged for a closer look

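In 22 named genes and 4 genotypes, 88 groups of 4 libraries were examined for a library whose gap to the nearest other exceeded Dixon's 95% critical share of the group's range, which chance gives in about 1 of 20 groups. It did in 6 of the 88 groups, and in 3 of them the library was control replicate 1. The 22 genes were chosen on these same values and several belong to 1 family, so the count cannot be read against that rate. Among the genes of those 3 groups, Pcdhb6 and Pcdhb2 belong to the same protocadherin cluster. Control replicate 1 was at 6.54 FPKM of Myoc against 0.25 to 1.08 FPKM in the other 3 controls. It was at 3.78 FPKM of Pcdhb6 against 0.58 to 0.81 FPKM, and at 2.96 FPKM of Pcdhb2 against 1.08 to 1.15 FPKM. Within the lines compared, β-cat cOE replicate 3 was at 1.18 FPKM of Pcdhb6 against 0.62 to 0.65 FPKM, β-cat cOE replicate 1 at 7.89 FPKM of Sfrp1 against 4.82 to 5.31 FPKM, and APC cKO replicate 5 at 4.43 FPKM of Pcdhb7 against 5.66 to 5.83 FPKM.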

How the results depend on the processing

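The count of 6 genes became 1 with the replicate number as a block, 1 with a mean of at least 2 FPKM, where 4 of the called genes were no longer tested and Cwc22 did not pass, and 1 at an adjusted p under 0.01. It became 10 with only the 8 libraries compared, and ranged from 1 (without β-cat cOE replicate 2 or 4) to 23 (without control replicate 1) as each library was left out. Under the other alternatives it was 5 to 7. The count of 727 genes without overlap was 613 to 873 under other filters and scalings and 1175 without APC cKO replicate 1, where fewer libraries have to stay apart. Apc passed under all 28 alternatives, with differences from -2.17 to -1.80. No alternative turned the direction of the other 5 calls. Of 81 named genes 79 kept their direction in all alternatives. Lef1 turned to -0.012 without APC cKO replicate 1, -0.016 without APC cKO replicate 4 and -0.063 without β-cat cOE replicate 2, with a highest value of 0.22 as libraries were left out, and Tuba1b turned to -0.0060 with the replicate block, -0.012 without APC cKO replicate 1 and -0.010 without β-cat cOE replicate 4, with a highest value of 0.043. The depth is unknown, and 4 libraries a line limit what could be called.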
